A study of Mus musculus with 21 samples.

Results

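The growth arrest genes described here are 8 mouse genes that restrain or time the cell cycle: Cdkn1a, Cdkn1b, Cdkn2b, Ccng2, Ccnd1, Gadd45a, Trp53inp1 and Igfbp3. They are 8 of 22367 protein-coding genes of the mm9 annotation and were chosen by name, with earlier results of these data known. For each gene, the peaks of vitamin D receptor (VDR) ChIP-seq and of ATAC-seq that overlapped the gene body or the 60 kb on either side were collected, a stretch called the gene's window below. The windows were 122 to 138 kb long with a median of 128 kb, against a median of 135 kb for all genes.

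VDR ChIP-seq, which recovers the DNA that VDR occupies, was made from colon, SI crypt and SI villus (SI, small intestine) of C57BL/6J mice, with 4 samples per compartment. The mice received 1,25(OH)2D3, the hormone that activates VDR, at 10 ng/g by intraperitoneal injection and were killed 1 h later. Their age is 4 to 6 weeks in the sample labels and older in the study's methods, and they ate a standard chow diet. ATAC-seq, which marks open chromatin, was made from the same compartments with 3 samples each, at 90 days of age. The study's methods describe these mice without injection, while the labels carry the injection text for all samples. The colon samples were scrapings of the mucosa of the entire colon, and SI crypts and villi were separated from the proximal small intestine. The compartments came from the same group of mice, no label ties a sample to a mouse, the labels' protocol names fewer mice than the 4 ChIP-seq samples of a compartment, and ChIP-seq without the hormone was not analysed here, so that the lists show where VDR sat after the injection and not by how much the injection raised it. P-values measure only the spread between these samples.

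The ChIP-seq samples held 10588783 to 17970894 fragments and the ATAC-seq samples 32767083 to 62692175 tags. The number of VDR peaks per sample ranged from 1136 to 13381. SI crypt sample 1 had the most peaks (13381) and the fewest fragments left after duplicate removal (3100376), and the other SI crypt samples had 1136 to 2480 peaks. It alone called 42.2% of the pooled SI crypt peaks. The start sites of all 5 epithelial markers were open in every ATAC-seq sample, those of the 4 immune markers in none, and those of the 4 stromal markers never in all 3 samples of a compartment. Of 6 small intestinal markers, 0 were open in all 3 colon samples, 3 in all SI crypt samples and 4 in all SI villus samples.

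VDR is a nuclear receptor that binds DNA as a partner of the retinoid X receptor, typically at a direct repeat of a hexamer such as AGGTCA or GGTTCA with a spacer of 3 bases, the DR3 element. In the intestine cells divide in the crypts, then stop dividing and differentiate as they move onto the villus or the colon surface. Cdkn1a (p21), Cdkn1b (p27) and Cdkn2b (p15) are inhibitors of cyclin-dependent kinases. Ccng2 is an unconventional cyclin linked to cell cycle exit, and Gadd45a and Trp53inp1 are stress-responsive targets of p53. Ccnd1 (cyclin D1) drives the passage through G1 and is the member that promotes division. Igfbp3 is a secreted protein that binds insulin-like growth factors.

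Sequences are shown for the sites that carried the strongest VDR peaks of these genes and for the sites nearest in sequence to the DR3 element. All are 121 bases of the plus strand of mm9, hold the summit, and lie outside annotated untranslated regions. Capitals mark the DR3 match, except in the last sequence, where they mark hexamer repeats with a spacer of 5 bases (DR5). The first line is from chr5:93691297-93691417, the second from chr4:11075191-11075311, the third from chr17:29231307-29231427, the fourth from chr17:29259582-29259702, the fifth from chr6:66973915-66974035 and the last from chr5:93721687-93721807.
Ccng2 site at -4.93 kb: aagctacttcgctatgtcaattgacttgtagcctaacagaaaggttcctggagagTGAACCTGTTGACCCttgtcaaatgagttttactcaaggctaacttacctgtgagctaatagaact
Trp53inp1 site at -8.29 kb: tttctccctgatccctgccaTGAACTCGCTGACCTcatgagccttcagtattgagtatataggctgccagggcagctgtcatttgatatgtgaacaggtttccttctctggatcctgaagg
Cdkn1a site at +3.44 kb: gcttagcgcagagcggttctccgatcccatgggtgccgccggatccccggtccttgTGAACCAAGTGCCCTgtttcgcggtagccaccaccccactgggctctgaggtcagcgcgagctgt
Cdkn1a site at +31.7 kb: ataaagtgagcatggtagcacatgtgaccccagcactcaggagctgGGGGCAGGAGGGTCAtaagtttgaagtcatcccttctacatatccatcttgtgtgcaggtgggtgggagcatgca
Gadd45a site at +13.5 kb: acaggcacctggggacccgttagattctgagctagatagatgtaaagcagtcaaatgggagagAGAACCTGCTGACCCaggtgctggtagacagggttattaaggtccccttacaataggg
Ccng2 site at +25.5 kb: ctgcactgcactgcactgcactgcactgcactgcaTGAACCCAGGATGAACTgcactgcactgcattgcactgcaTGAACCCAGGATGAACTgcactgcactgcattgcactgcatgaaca

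Distances count along the gene from its transcription start site (TSS), and negative ones are upstream. The TSS was taken as the upstream end of the annotated gene, and alternative start sites were not searched. The elements of the Ccng2 site at -4.93 kb (GGGTCAACAGGTTCA) and of the Trp53inp1 site at -8.29 kb (AGGTCAGCGAGTTCA) lie on the minus strand and match every letter of the DR3 consensus. Their centres lie 3 and 67 bases from the summit. The Cdkn1a elements at +3.44 kb and +31.7 kb each differ from the consensus by T4G, and the Gadd45a element at +13.5 kb by A15T, with positions counted from 1 at the 5′ end of the element. The Ccng2 site at +25.5 kb lies in a tandem repeat, and its best DR3 match has 1 mismatch (T13G), while 3 DR5 repeats were found within the 200 bases at its summit. DR5 was searched after this sequence had been seen.

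Joining the pooled peaks of the 3 compartments where they overlapped gave 60 VDR sites in the 8 windows. Gadd45a had 15 sites, Cdkn1a 14, Trp53inp1 10, Ccng2 9, Cdkn1b 6, Cdkn2b and Ccnd1 3 each, and Igfbp3 had 0. A pooled VDR peak thus lay in the window of 7 of the 8 genes in every compartment. Of all genes, 71.7% in colon, 63.2% in SI crypts and 67.2% in SI villi had a pooled peak in their window. Not every member rested on peaks that single samples called: no colon sample called any pooled colon peak of Cdkn1b. A pooled peak lay within 1 kb of the TSS of Cdkn2b, Ccng2, Gadd45a and Trp53inp1, again 4 of 8 genes in each compartment, against 22.2%, 17.6% and 24.2% of all genes. Cdkn1a, the cyclin-dependent kinase inhibitor best known as a p53 target, had none there. The median number of pooled peaks per window was 5.5 in colon, 2.5 in SI crypts and 4.5 in SI villi for the members, against 2, 1 and 1 for all genes. These are counts beside a background, with no test over the list. The list was chosen with earlier results of these data known, so an excess over all genes is not independent of them.

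**Figure D1:**
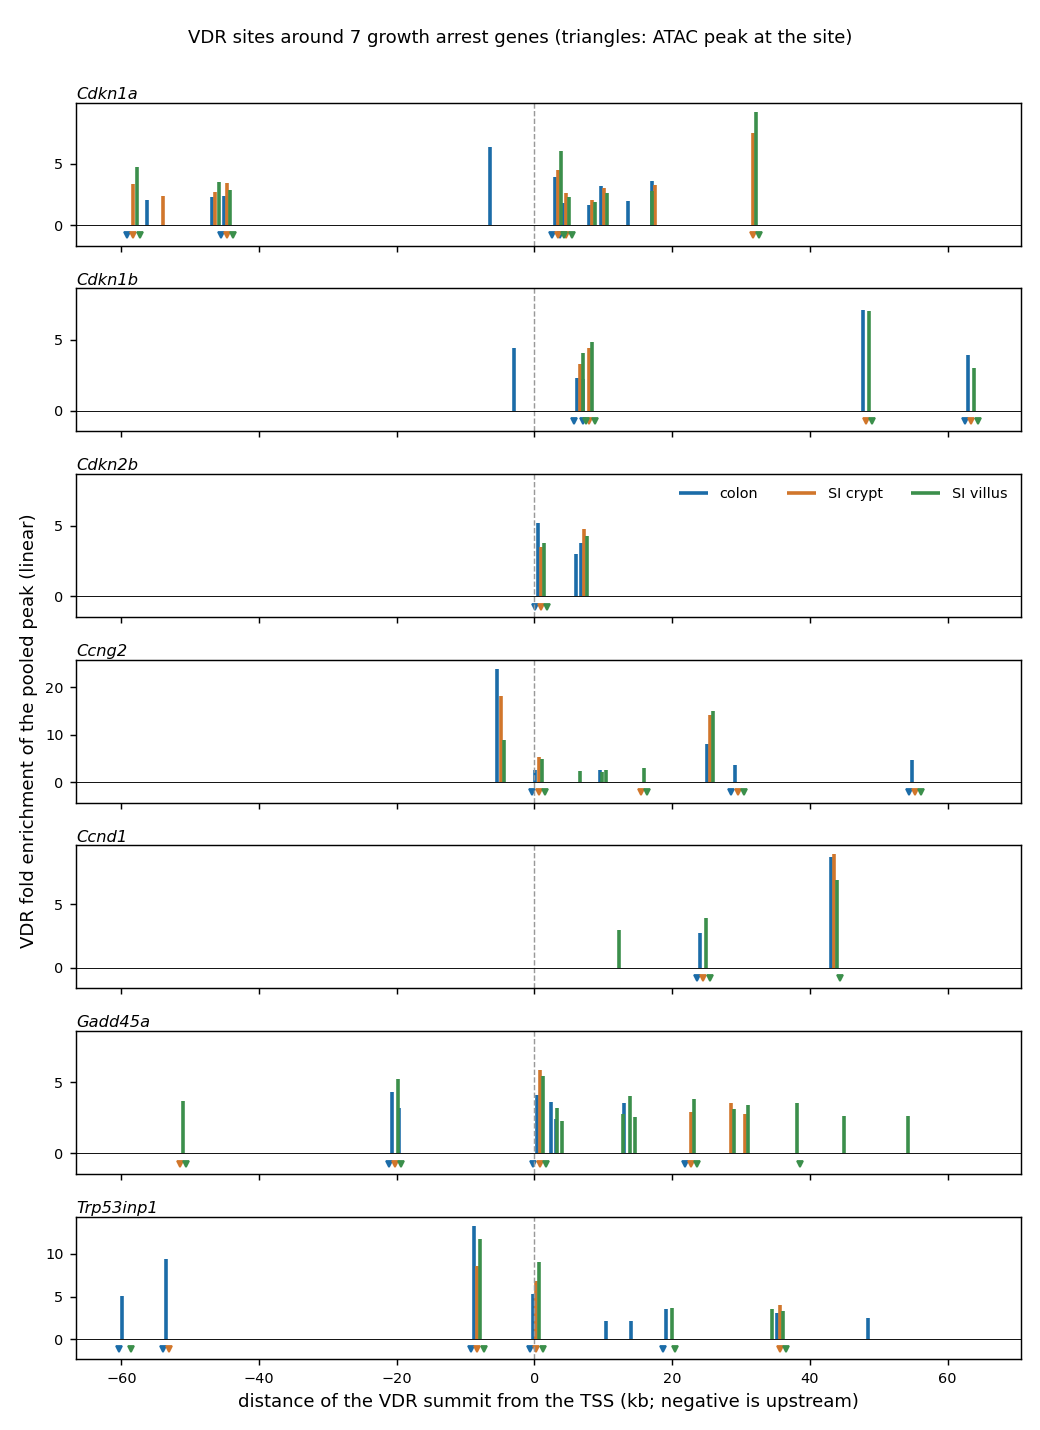
VDR sites in the windows of the 7 genes that had any. The x axis is the distance of the summit from the TSS in kb and the bar height the fold enrichment of the pooled peak (linear, scaled to each gene's own panel), with 1 bar per compartment set slightly apart (colon, SI crypt, SI villus) and triangles below the axis where the site overlapped a pooled ATAC peak of that compartment. The tallest bars are the Ccng2 sites at -4.93 and +25.5 kb, neither with a triangle, and the Trp53inp1 site at -8.29 kb, with a triangle in every compartment.

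Of the 60 sites, 17 were in the pooled lists of all 3 compartments, 16 in 2 lists and 27 in 1 list. Over all 34864 VDR sites, 16.4% were in 3 lists. The single-list sites were 14 of colon, 1 of SI crypt and 12 of SI villus, against 36.5%, 8.46% and 19.9% of all sites. Position gave a further split: 14 sites lay upstream of the member's TSS, 36 were intergenic, 18 intronic, 3 in coding exons, 2 in untranslated regions and 1 in another exon. For 44 of the 60 sites the member was the gene with the nearest TSS, and the other 16 lay closer to a neighbour. A peak of at least 2 of the 12 single samples overlapped 25 sites, and no single sample called 21. Taken list by list, at least 1 sample of the same compartment called 26 of 41 colon peaks (49.2% of all colon peaks), 19 of 26 SI crypt peaks (64.6%) and 25 of 45 SI villus peaks (50.4%). At least 2 samples called 17, 6 and 11 of them (22.8%, 16.9% and 24.4% of all peaks), and all 4 samples called 3, 1 and 3 (3.64%, 3.69% and 3.83%). SI crypt sample 1 alone called 11 of the 26 SI crypt peaks, and without it 8 were called.

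The median fold enrichment of the members' peaks, the ratio of the fragment pileup at the summit to the local background of the same list, was 3.54 in colon (41 peaks), 3.52 in SI crypts (26) and 3.57 in SI villi (45), against 3.36, 3.84 and 3.61 over all peaks. Their median -log10 q was 10.8 in colon, 8.56 in SI crypts and 6.49 in SI villi, against 5.98, 5.97 and 6.08 over all peaks, and their median width 490, 466 and 453 bp, against 325, 398.5 and 383 bp. A fold enrichment ranks peaks within a list and is not scaled to depth between lists. Open chromatin overlapped 31.7% of the members' colon peaks (13 of 41, 95% Wilson interval 19.6 to 47.0%), 50.0% of their SI crypt peaks (13 of 26, 32.1 to 67.9%) and 48.9% of their SI villus peaks (22 of 45, 34.96 to 63.0%). Over all VDR peaks the shares were 41.9%, 50.4% and 56.3%, each within the members' interval. Intervals cover counting error only.

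Ccng2 (chromosome 5, 93696283 to 93705257, plus strand) carried the highest fold enrichment of any member. Its intergenic site at -4.93 kb was the 40th of 22882 colon peaks by -log10 q (319) and had a fold enrichment of 23.9 in colon, 18.2 in SI crypts and 8.96 in SI villi. In colon the 4 samples gave 10.1, 21.3, 18.0 and 23.5. In SI crypt samples 2, 3 and 4 gave 17.9, 7.65 and 16.1, and sample 1, the one with the most peaks, listed none. In SI villus samples 3 and 4 gave 6.06 and 10.8, and samples 1 and 2 listed none. The median of colon lay above both SI compartments, but the ranges overlapped, since SI villus sample 4 exceeded colon sample 1. The exact permutation test of the ranks, with samples that list no peak as lowest, gave p = 0.0571 for colon against SI villus. That pair alone made the overlap, so leaving out colon sample 1 or SI villus sample 4 removed it by construction. The authors' DiffBind set of sites higher in colon than in SI villus, made from reads, holds this site. It overlapped no pooled ATAC peak in any compartment.

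The intergenic Ccng2 site at +25.5 kb, the one in the tandem repeat, showed the opposite order. Its fold enrichment was 8.03 in the pooled colon list, 14.2 in SI crypts and 15.1 in SI villi, with a -log10 q of 53.9, 128 and 273. The colon samples 2, 3 and 4 gave 8.92, 7.79 and 8.24, and sample 1 listed none. The 4 SI crypt samples gave 16.3, 9.95, 8.65 and 12.8. The 4 SI villus samples gave 17.4, 15.9, 9.64 and 13.3. Every SI villus sample was thus above every colon sample, the only member site of 60 whose samples did not overlap in that comparison. Of all sites, 0.562% were lower and 0.582% higher in colon in this way. The exact permutation test of the ranks gave p = 0.0286, the smallest that 4 against 4 samples allow, and an adjusted p of 1 over the 34864 sites. Colon and SI crypt overlapped by 1 sample (p = 0.0571, exact permutation test). All these ranks compare fold enrichments that are not scaled to the unequal depth of the samples. This site, called by 11 of 12 samples, overlapped no pooled ATAC peak, and how uniquely reads align to its repeat was not tested.

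The other Ccng2 sites were weaker. At +0.59 kb, in an intron beside the promoter, the fold enrichment was 2.61 in colon, 5.29 in SI crypts and 4.90 in SI villi. No colon sample called it, against SI crypt sample 1 (8.41) and SI villus samples 1, 2 and 4 (6.14, 6.26 and 3.95). The chromatin there was open in all 3 ATAC samples of every compartment, with an ATAC fold enrichment of 7.02 in colon, 7.58 in SI crypts and 5.76 in SI villi. A site at +29.5 kb was in the colon list alone (3.63, samples 2 and 4 at 4.55 and 3.44), and its chromatin was open in every compartment. The site at +9.96 kb had 2.62 in colon, called by samples 3 and 4 at 2.64 and 3.12, and 2.61 in SI villus, called by sample 4 at 2.15. The +29.5 kb site belongs to the authors' set in which colon exceeded SI villus, and the +9.96 kb site in the set higher in colon than in SI crypt.

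Trp53inp1 (chromosome 4, 11083578 to 11101526, plus strand) encodes a p53-induced nuclear protein linked to arrest and cell death. Its strongest site in every compartment was the exact DR3 site at -8.29 kb, with a fold enrichment of 13.3 in colon, 8.60 in SI crypts and 11.8 in SI villi. The 4 colon samples gave 5.81, 10.5, 10.9 and 14.6. In SI crypt only sample 3 listed it (7.74), and in SI villus samples 3 and 4 did (8.21 and 13.5). All 4 colon samples called it, but SI crypt sample 3 exceeded colon sample 1, and the exact permutation test of the ranks gave p = 0.0571 for colon against SI crypt. That pair alone made the overlap, so leaving out either sample removed it by construction. Unlike the strong Ccng2 sites, it lay in open chromatin in all 3 ATAC samples of each compartment, at an ATAC fold enrichment of 5.13 in colon, 7.79 in SI crypts and 5.28 in SI villi.

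At +0.27 kb, in an intron at the Trp53inp1 promoter, VDR gave a fold enrichment of 5.35 in colon, 6.77 in SI crypts and 9.06 in SI villi. Colon samples 3 and 4 had 5.02 and 6.55, SI crypt samples 1 and 2 had 8.42 and 4.63, and SI villus samples 1, 2 and 4 had 8.22, 11.1 and 5.45. The promoter was open in all ATAC samples, and the compartments overlapped. Far upstream, the pooled peaks at -53.0 kb (9.39) and -59.4 kb (5.00) were in the colon list alone. Colon samples 2, 3 and 4 called both, at 10.7, 5.64 and 6.09 for the nearer site and 4.94, 4.84 and 6.01 for the farther one, while SI villus sample 2 also called the nearer one (6.40). Both lie closer to 2310030N02Rik than to Trp53inp1. At +19.5 kb, nearest to Ccne2, the cyclin that drives S phase entry, the fold enrichment was 3.52 in colon (sample 3 at 4.17) and 3.60 in SI villus (sample 1 at 5.96). The authors' set higher in colon than in SI crypt holds the +19.5 and -59.4 kb sites, and that higher in colon than in SI villus the +19.5 kb site.

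Cdkn1a (chromosome 17, 29227924 to 29237667, plus strand) had 10 pooled peaks in colon, 10 in SI crypts and 9 in SI villi, as many as or more than any other member in colon and SI crypt. Only 0.841% of all genes had 10 or more SI crypt peaks in their window, but SI crypt sample 1 alone called 6 of the 10 and no sample called 2, so that without sample 1 only those at +3.44 and +31.7 kb were called. Its strongest site by -log10 q in every compartment was intronic, at +3.44 kb, with a fold enrichment of 3.90 in colon, 4.47 in SI crypts and 6.05 in SI villi. Colon samples 2, 3 and 4 gave 3.97, 3.27 and 5.37. SI crypt samples 1 and 4 gave 5.32 and 3.12, and the 4 SI villus samples gave 8.17, 12.0, 3.36 and 4.13. All SI villus samples called this site, where a near-match to DR3 lies 6 bases from the summit, but their values overlapped those of colon and SI crypt. Only SI crypt sample 1 exceeded any SI villus sample. Without it the SI villus samples thus all lay above the SI crypt samples by construction. The chromatin was open there in all compartments, at an ATAC fold enrichment of 5.82 in colon, 5.72 in SI crypts and 4.49 in SI villi. No pooled ATAC peak lay within 1 kb of the annotated Cdkn1a TSS, where 49%, 55.6% and 52.2% of all genes had one in colon, SI crypt and SI villus. That TSS is the upstream end of the annotated gene. Whether another start site lies near the open site at +3.44 kb was not searched.

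The intergenic Cdkn1a site at +31.7 kb was in the SI lists only, at 7.49 in SI crypts and 9.24 in SI villi. SI crypt sample 3 (7.42) and SI villus samples 1 and 2 (11.2 and 6.31) called it, and no colon sample did. Its chromatin was open in all 3 ATAC samples of SI crypt (7.30) and of SI villus (7.91) but carried no pooled ATAC peak in colon. The authors placed it in their sets higher in SI crypt than in colon and higher in SI villus than in colon. Its nearest TSS is that of Rab44, not Cdkn1a. The reverse pattern was seen at -6.06 kb, in the colon list alone (6.35, samples 3 and 4 at 5.14 and 6.96) and without an ATAC peak. At +10.1 kb, in the authors' set higher in colon than in SI crypt, the fold enrichment was 3.21 in colon (samples 1, 2 and 3 at 3.36, 3.42 and 4.10), 3.01 in SI crypts (sample 1 at 5.27) and 2.60 in SI villi (sample 4 at 2.70).

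Further Cdkn1a sites were shared and low. The intronic site at +4.58 kb had 1.78 in colon, 2.59 in SI crypts and 2.31 in SI villi, called by SI crypt sample 1 (4.04) and SI villus sample 4. At -44.7 kb the fold enrichment was 2.40 in colon, 3.47 in SI crypts and 2.89 in SI villi, with colon samples 2, 3 and 4 at 3.23, 2.36 and 2.98 and sample 1 of SI crypt and of SI villus at 6.69 and 4.89. At -46.3 kb it was 2.27, 2.71 and 3.54 in the same order, called by colon sample 3 (2.51) and SI crypt sample 1 (5.15). The window also held the promoter of Srsf3, which encodes a splicing factor, with a site at -58.2 kb in SI crypt (3.38, sample 1 at 9.34) and SI villus (4.71, samples 1 and 4 at 4.04 and 4.72).

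**Figure D2:**
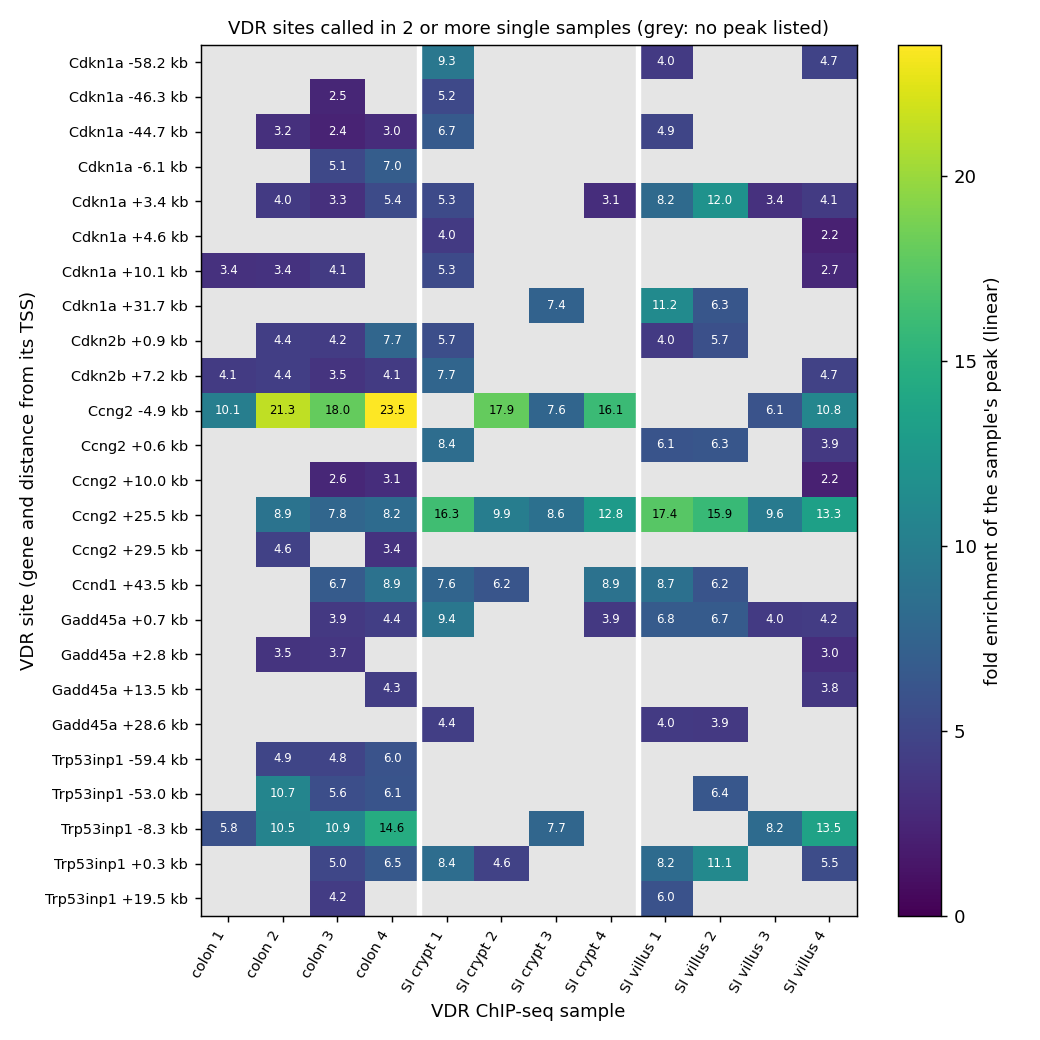
Fold enrichment (colour, linear, and printed in each cell) of the peak that each of the 12 VDR samples listed at the 25 sites called by 2 or more samples. Columns are the 4 samples each of colon, SI crypt and SI villus, rows are sites by gene and distance from the TSS, and grey means that the sample listed no peak. The Ccng2 site at +25.5 kb has values in 11 samples, with the 4 SI villus samples at 9.64 to 17.4, all above the colon samples.

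Gadd45a (chromosome 6, 66985090 to 66987451, minus strand), which binds PCNA and p21 after DNA damage, had the most SI villus peaks: 15, a number reached by 0.890% of all genes, against 6 in colon and 5 in SI crypt. Only its site at +0.75 kb, in a coding exon, was in all 3 lists, with a fold enrichment of 4.09 in colon, 5.88 in SI crypts and 5.47 in SI villi. Colon samples 3 and 4 gave 3.88 and 4.36, SI crypt samples 1 and 4 gave 9.36 and 3.95, and the 4 SI villus samples gave 6.76, 6.75, 4.04 and 4.18. All SI villus samples called it, with values that overlapped those of colon and SI crypt. This was the most open site of the members in colon, at an ATAC fold enrichment of 12.4 in colon, 11.8 in SI crypts and 8.58 in SI villi.

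Of the other 14 Gadd45a sites, 1 was in the colon list alone, and the 13 in the SI villus list had a fold enrichment of 2.31 to 5.27 there, with 6 in that list alone. Of the 14 Gadd45a sites in the SI villus list, 8 were called by no SI villus sample. Sites in Gng12 introns downstream of Gadd45a supplied 6 of the 15, of which the one at +28.6 kb was called by more than 1 sample, SI crypt sample 1 (4.38) and SI villus samples 1 and 2 (3.98 and 3.88). Nearer the gene, the site at +2.78 kb had 3.59 in colon (samples 2 and 3 at 3.53 and 3.71) and 3.17 in SI villus (sample 4 at 3.05). The site at +3.56 kb had 2.39 in colon (sample 2 at 3.47) and 2.31 in SI villus, with no sample. The site with the near-match to DR3, at +13.5 kb, had 3.54 in colon (sample 4 at 4.27) and 4.02 in SI villus (sample 4 at 3.81), and it was not in open chromatin.

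Cdkn2b (chromosome 4, 88952198 to 88956941, minus strand), the inhibitor of CDK4 and CDK6 that answers to TGF-beta, had sites of similar height in all compartments. At +0.94 kb, in the intron beside its open promoter, the fold enrichment was 5.15 in colon, 3.48 in SI crypts and 3.79 in SI villi. Colon samples 2, 3 and 4 gave 4.38, 4.23 and 7.74, SI crypt sample 1 gave 5.69, and SI villus samples 1 and 2 gave 3.97 and 5.71. The intergenic site at +7.24 kb, past the end of the gene, was called by all 4 colon samples, at 4.07, 4.40, 3.53 and 4.14. It was called by SI crypt sample 1 (7.65) and SI villus sample 4 (4.69), with pooled values of 3.78 in colon, 4.79 in SI crypts and 4.23 in SI villi. More colon samples called it, but where an SI sample did so its value was not lower. It overlapped no ATAC peak. Cdkn2a, the neighbouring tumour suppressor, shares these peaks.

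Ccnd1 (chromosome 7, 152115836 to 152125774, minus strand) had 3 sites and none near its promoter. The strongest, at +43.5 kb, had a fold enrichment of 8.74 in colon, 8.92 in SI crypts and 6.94 in SI villi. Colon samples 3 and 4 gave 6.73 and 8.87, SI crypt samples 1, 2 and 4 gave 7.62, 6.22 and 8.88, and SI villus samples 1 and 2 gave 8.69 and 6.15. The compartments overlapped throughout. Its summit lies at -0.144 kb from the TSS of Fgf15, the hormone with which the ileum restrains bile acid synthesis, so distance assigns it to that gene. Only SI villus had open chromatin there (4.63). The site at +24.5 kb sits at the Oraov1 promoter, with 2.74 in colon and 3.95 in SI villus, and no sample called it.

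Cdkn1b (chromosome 6, 134870419 to 134875531, plus strand), the inhibitor that holds resting cells out of the cycle, had 6 sites and none that 2 samples called. Its strongest by fold enrichment in colon (7.10) and in SI villus (7.01) was the same intergenic site at +48.2 kb, nearest to Apold1 and called by SI villus sample 2 (7.99). The strongest in SI crypt was at +7.89 kb, at 4.42 in SI crypts and 4.87 in SI villi, called by SI villus sample 1 (5.03) and open in every compartment. A site at -2.59 kb was in the colon list alone (4.43), with no sample. In its window 1 colon sample, 1 SI crypt sample and 3 SI villus samples listed a VDR peak. Its promoter was open in all ATAC samples, at 7.25 in colon, 8.87 in SI crypts and 8.24 in SI villi.

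Igfbp3 (chromosome 11, 7106089 to 7113926, minus strand) had no VDR peak in its window in any pooled list or in any of the 12 single lists, and 79.1% of all genes had a pooled peak in at least 1 compartment. The nearest pooled peak was 566 kb away in colon, 361 kb in SI crypts and 588 kb in SI villi. Binding was not detectable at this depth and threshold. Open chromatin was also scarce: 0 pooled ATAC peaks in colon, 2 in SI crypts and 1 in SI villi. One of the SI crypt peaks lay at -0.212 kb from the TSS, at a fold enrichment of 3.26, and no single sample called it. The window overlaps that of Igfbp1, which had no VDR peak either.

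Exact DR3 matches in the 200 bases at the summit were found at 2 of 60 sites (3.33%), against 2.05% of all colon peaks, 2.31% of SI crypt peaks and 1.69% of SI villus peaks. Allowing 1 mismatch gave 6 sites (10%), against 10.4%, 9.68% and 8.25%. Hexamers of the forms AGGTCA or GGTTCA, and also of the forms GGGTCA or AGTTCA, on either strand, were at 34 sites (56.7%), against 56.8%, 46.1% and 48.1%. The AP-1 motif TGANTCA was at 6 sites (10%), against 7.38%, 5.42% and 6.72%, and the FOXO motif TGTTTAC at 2 (3.33%), against 2.85%, 1.92% and 2.1%, 1 of them the Ccng2 site at -4.93 kb. The p53 consensus was at 0 sites, against 0%, 0% and 0.0111% of all peaks. DR5 was at 1 site (1.67%), against 0.446%, 0.449% and 0.382%, and DR4 at 0, against 0.979%, 0.874% and 0.78%. These letters are matches and not shown to be sites.

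The sets that the authors made with DiffBind held 7 of the 60 sites. The counts that follow are of these joined sites, while the percentages are of the peaks of 1 compartment's list, so the units differ. In the set higher in colon than in SI crypt were 4 (2.49% of all colon peaks), in that higher in colon than in SI villus 3 (4.08%), in that higher in SI crypt than in colon 1 (3.72% of SI crypt peaks) and in that higher in SI villus than in colon 1 (4.34% of SI villus peaks). Both sets that compare SI crypt with SI villus held 0 (0.59% of SI crypt peaks were in the set higher in SI crypt and 0.0277% of SI villus peaks in the set higher in SI villus). Site by site, the samples of 0 of 60 sites failed to overlap between colon and SI crypt (0.562% of all sites were higher and 0.241% lower in colon). For SI crypt against SI villus the count was also 0 (0.0201% higher and 0.201% lower in SI crypt). No site of 34864 passed an adjusted p of 0.05 in these exact permutation tests, and 280, 399 and 77 had an unadjusted p under 0.05 for colon against SI crypt, colon against SI villus and SI crypt against SI villus.

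The comparison of whole windows asked whether a compartment's samples placed more of their VDR peaks near a gene. The number of peaks in the window was taken per 1000 peaks of each sample, because the lists differed in length. Cdkn2b was the member whose samples did not overlap, in colon against SI crypt. The colon samples had 0.568, 0.399, 0.326 and 0.198 peaks per 1000, with a mean of 0.373 ± 0.155 (SD, n = 4). SI crypt sample 1 had 0.149 and the other 3 had 0, with a mean of 0.0374 ± 0.0747 (SD, n = 4). The difference was 0.335 (p = 0.0286, exact permutation test, adjusted p = 0.991 over all genes). It rested on 1 or 2 peaks per colon sample, and 2.04% of all genes were higher in colon in this way (2.88% in either direction). With unscaled counts, where SI crypt sample 1 reaches 2 peaks, the samples overlapped, and so they did with peaks of -log10 q of at least 5. Without SI crypt sample 1 the members that did not overlap were Cdkn2b, higher in colon, and Ccng2, lower in colon, beside 6.61% of all genes in either direction. Without SI crypt sample 3 they were Cdkn2b and Trp53inp1, higher in colon, and Ccnd1, lower in colon, beside 3.7% of all genes in either direction.

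No member differed in this way between colon and SI villus, where 2.34% of all genes were higher and 0.984% lower in colon (3.32% together), or between SI crypt and SI villus, where 0.215% were higher and 0.46% lower in SI crypt (0.675% together). Ccng2 averaged 0.538 ± 0.0543 peaks per 1000 in colon, 0.908 ± 0.661 in SI crypts and 0.746 ± 0.512 in SI villi (SD, n = 4 each). Every SI crypt sample listed 2 Ccng2 peaks, against 1 to 5 in colon and 2 to 4 in SI villus. The SI crypt values per 1000 thus differed only by the list lengths of 1136 to 13381 peaks. The higher SI crypt mean is not a measure of more VDR binding. Gadd45a averaged 0.411 ± 0.295 in colon, 0.157 ± 0.195 in SI crypts and 0.691 ± 0.447 in SI villi, and the difference between SI crypt and SI villus (-0.53) had p = 0.0571 in the exact permutation test. The overlap of its samples came only from SI crypt sample 4 lying above SI villus sample 1. Leaving out either removed the overlap by construction. Of all genes, 1.03% did not overlap without SI crypt sample 4 and 0.957% without SI villus sample 1. Of all 22367 genes, 0 passed an adjusted p of 0.05 in any of the 3 VDR comparisons, and 645, 743 and 151 had an unadjusted p under 0.05.

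**Figure D3:**
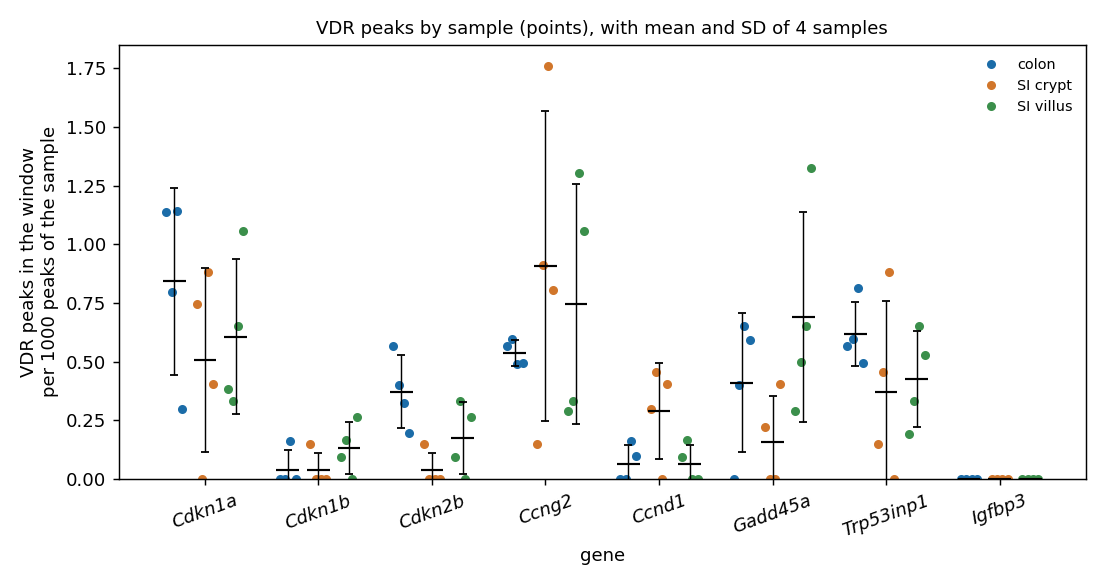
VDR peaks in each gene's window per 1000 peaks of the sample's list. Points are the 4 samples of colon, SI crypt and SI villus, the wide line is their mean and the bar 1 SD. Cdkn2b is the gene where all colon points (0.198 to 0.568) lie above all SI crypt points (0 to 0.149), and Igfbp3 is at 0 in every sample.

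All 8 members had a pooled ATAC peak in their window in SI crypt (90.2% of all genes) and in SI villus (87.3%), and 7 in colon (83.5%). ATAC peaks in the windows were compared in the same way with 3 samples per compartment, where the smallest exact p is 0.1 and no gene can pass. Per 1000 peaks, the colon samples lay above the SI crypt samples for Ccng2 (0.329, 0.286 and 0.244 in colon, against 0.213, 0.199 and 0.190 in SI crypt) and for Trp53inp1 (0.282, 0.214 and 0.304 in colon, against 0.135, 0.170 and 0.121 in SI crypt), 2 of 8 members against 33.3% of all genes in either direction (20% higher and 13.4% lower in colon). Colon lay above SI villus for Cdkn1a (0.235, 0.214 and 0.244 in colon, 0.176 to 0.209 in SI villus), 1 of 8 against 31.6% (19.6% higher and 12% lower in colon). Between SI crypt and SI villus 3 of 8 did not overlap, against 21.4% (10% higher and 11.4% lower in SI crypt), with Cdkn1b higher in SI crypt (difference 0.0436) and Ccng2 and Trp53inp1 lower (differences -0.0495 and -0.0688). Counts near the background say nothing particular of these genes, and the members changed with the window: with 100 kb on each side Cdkn1b took the place of Ccng2 in colon against SI crypt, and with 30 or 100 kb it took that of Cdkn1a in colon against SI villus. Unscaled, Ccng2 had 2 fewer peaks in colon than in SI crypt and Cdkn1a 3 fewer than in SI villus, with colon lists of 21269 to 32853 peaks, SI crypt lists of 35220 to 57825 and SI villus lists of 43090 to 51037.

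At the promoters, an ATAC peak called by all 3 samples of every compartment lay within 1 kb of the TSS of Cdkn1b, Cdkn2b, Ccng2, Gadd45a and Trp53inp1. Ccnd1 had no pooled ATAC peak within 1 kb of its TSS in colon, and low ones in SI crypt (3.49, 1 sample) and SI villus (2.85, no sample). The members with a VDR peak within 1 kb of the TSS were all among the first group.

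In a wider list of 25 growth control genes, 23 had a pooled VDR peak in their window in colon, 22 in SI crypts and 21 in SI villi (71.7%, 63.2% and 67.2% of all genes). Within 1 kb of the TSS, 11, 9 and 11 of the 25 had one (22.2%, 17.6% and 24.2% of all genes). The list holds other inhibitors, cyclins and kinases, p53 and its partners, FOXO factors and IGF-binding proteins. The highest fold enrichments in it were 21.6 for Rb1 in SI villus (at +182 kb, nearest to Rcbtb2), 19.1 for Gadd45b in SI crypt (+28.0 kb), 13.3 for Cdkn2d in SI villus (+25.3 kb, nearest to Atg4d) and 12.4 for Igfbp4 in SI villus (+26.8 kb, nearest to Tns4). Igfbp1 and Igfbp2 joined Igfbp3 in having 0 VDR peaks in their windows.

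The genes most like Ccng2 over the 12 VDR samples, by the Spearman correlation of the highest fold enrichment in the window, were Ano1, a chloride channel (rho = 0.96), followed by Col1a1, Sgca, Hils1 and Gm17329, which share a window (rho = 0.95). The highest Ccng2 value came from the -4.93 kb site in the colon samples and from the +25.5 kb site in the SI villus samples. In SI crypt it came from either site, so the correlation describes neither site alone. Ano1 had 9 samples with a peak. Of all genes, 228 reached a rho of 0.8. The points are samples of unequal depth that all genes share, and the values are a description.

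At the edge of the windows, the 6 pooled peaks at 55 to 60 kb from a gene had a fold enrichment of 2.06 to 5.00 (median 3.65), and the 5 just outside, at 60 to 65 kb, had 2.73 to 3.88 (median 3.31).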

How the data were processed

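Peak lists of 12 VDR ChIP-seq and 9 ATAC-seq samples and of the merged samples of each compartment were used as the authors deposited them, with genome mm9. Tools listed by the submitters' processing notes are cutadapt 1.9.1, DiffBind, Bowtie2 2.2.6, deepTools, SAMtools 0.1.19, Picard 2.18.27, MACS2 2.1.0.20150731 and bedtools 2.17.0. Peak calling by the authors used MACS2 with a q of 0.05 and no input control. The deposited fold enrichment is the ratio of the pileup to the local background, and the deposited -log10 q is MACS2's own value. The deposited pileup, a signal not scaled to depth, was not compared. The deposited pooled intervals were centred on the summit by the authors with their length kept. The DiffBind sets were used for positions only. No read counts were in the files used here, so no count model was fitted.

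Overlap meant at least 1 shared bp. Genes and features came from the mm9 GENCODE annotation of 22367 protein-coding genes. In the 200 bases around each summit, each motif was matched as fixed letters in both orientations, and overlapping matches each counted. Two-sided exact permutation tests were run on every gene and every VDR site, with Benjamini-Hochberg adjustment over all of them at 0.05. The site test, DR4 and DR5 were added after the data had been seen. The site test ranks fold enrichments across samples of unequal depth, to which they are not scaled. On simulated data, the overlap search differed from a direct search in 0 of 400 cases and the permutation test from a full listing in 0 of 60. Python 3.11.15, numpy 2.4.6, pandas 2.3.3, scipy 1.17.1 and matplotlib 3.10.9 were used.

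The members and lists were chosen with earlier results of these data known. Sites described singly were those within 5 kb of the TSS, those called by at least 2 samples, those with a DR3 motif and the strongest by -log10 q per compartment. Of the wider list the 4 genes with the highest fold enrichment were named, and the 3 genes most like the member with the highest one, with ties. Other Cdkn1a, Gadd45a and motif sites that are named were chosen after their values were seen. Alternatives were other window sizes, unscaled counts, equal numbers of the strongest peaks, a -log10 q of at least 5, other overlap rules, the replicate number as a block, and fits without 1 sample.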

Additional observations from a re-analysis of the deposited data

Results flagged for a closer look

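In 3 of 28 groups of 4 VDR samples (peaks per window, and fold enrichment at sites that all 4 samples called), 1 sample stood far from the others by Dixon's ratio. Each is a window where 1 sample listed peaks and the other 3 listed none, so that the zeros fixed the ratio at its maximum and the usual chance rate of about 1 group in 20 does not apply. For Cdkn1b, colon sample 3 had 0.163 peaks per 1000 of its list and SI crypt sample 1 had 0.149. For Cdkn2b, SI crypt sample 1 had 0.149. The part of the high number of peaks and low number of unduplicated fragments of SI crypt sample 1 in the last 2 values was not tested.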

How the results depend on the processing

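The count of members whose VDR samples did not overlap between colon and SI crypt was 1 as reported, 2 with 100 kb on each side, 0 with unscaled counts, with equal numbers of the strongest peaks or with a -log10 q of at least 5, and 1 to 3 when 1 sample was left out. In the same order, 2.88%, 3.75%, 0.765%, 1.14%, 1.92% and 3.27% to 7.93% of all genes did not overlap. Between SI crypt and SI villus the count was 0 as reported (0.675% of all genes), 1 (Gadd45a) with 100 kb (0.805%), and 0 to 1 without 1 sample (Gadd45a or Ccnd1, 0.921% to 3.65%). For ATAC, colon against SI crypt gave 2 members as reported (Ccng2 and Trp53inp1), 1 with equal numbers (Ccng2), 4 with a -log10 q of at least 5 (Ccng2, Cdkn2b, Ccnd1 and Gadd45a) and 2 to 5 without 1 sample. The 2 members were Cdkn1b and Trp53inp1 with 100 kb and Cdkn1b and Gadd45a unscaled. In the order of these settings, 33.3%, 22.1%, 30.3%, 39.4% to 44.9%, 36.6% and 32.1% of all genes did not overlap. Colon against SI villus gave 1 as reported (Cdkn1a), 4 unscaled, 2 with equal numbers and 1 to 3 without 1 sample, and with 30 or 100 kb the 1 member was Cdkn1b, not Cdkn1a. In the same order, 31.6%, 35.1%, 21.2%, 37.5% to 43.1%, 28.3% and 34.5% of all genes did not overlap. SI crypt against SI villus gave 3 as reported (Cdkn1b, Ccng2 and Trp53inp1, beside 21.4% of all genes), 1 unscaled (Trp53inp1) and 3 to 4 without 1 sample. The members were Cdkn1b and Trp53inp1 with 30 kb, Ccnd1 and Trp53inp1 with 100 kb, Ccng2 and Trp53inp1 with a -log10 q of at least 5, and Cdkn2b, Ccng2 and Gadd45a with equal numbers. For SI crypt against SI villus the 21.4% holds for the setting as reported. The shares of all genes in its other settings are not given here, so those counts have no background beside them. Unscaled, the colon differences turned round for Ccng2 (-2 peaks) and Cdkn1a (-3 peaks), where colon had the shorter lists. In the site test, chosen after seeing the data, 0, 1 and 0 sites did not overlap (colon against SI crypt, colon against SI villus, SI crypt against SI villus). Of all sites, 0.803%, 1.14% and 0.221% did not overlap in the same order. Without 1 sample the counts were 0 to 4, 1 to 3 and 0 to 2. The shares of all sites without 1 sample are not given here, so these counts have no background beside them. The Ccng2 site at +25.5 kb stayed in each fit without 1 sample for colon against SI villus.

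Of the pooled peaks, a single sample called 26 for colon, 19 for SI crypt and 25 for SI villus, and 2 or more samples called 17, 6 and 11. Without 1 sample a single sample called 21 to 26, 8 to 19 and 17 to 25, with the 8 for SI crypt without sample 1. With 50% of the peak covered, 17.1% of the members' colon and 23.1% of their SI crypt peaks overlapped ATAC, and with the midpoint inside 19.5% and 30.8%. The SI villus shares under these 2 rules are not given here. Allowing 1 mismatch gave 6 DR3 sites. Pooled peaks numbered 31 to 60 for colon, 21 to 34 for SI crypt and 35 to 59 for SI villus with 30 and 100 kb, against 41, 26 and 45 as reported. With a -log10 q of at least 5 they numbered 29, 19 and 31, of which 41.4%, 63.2% and 58.1% overlapped ATAC, and with equal numbers of the strongest peaks 28, 26 and 34. The ATAC shares under the stricter overlap rules and the q limit were taken for the members' peaks only. The shares of 41.9%, 50.4% and 56.3% over all VDR peaks hold for an overlap of 1 bp without that limit. They are not a background for the other settings.

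Equal replicate numbers were not taken to pair the samples, with correlations of deviations of -0.525 to 0.672 for VDR (4 of 12 over 0.1, and 3 of 12 samples closest to their own number). SI crypt and SI villus held 3 of those 4, at 0.672, 0.325 and 0.166, and all 3 samples closest to their own number, while sample 2 had -0.0725. The range was -0.145 to 0.0912 for ATAC (0 of 9, and 2 of 9). With the replicate block, 1, 0 and 1 members did not overlap for VDR, 4, 3 and 3 for ATAC, and 3, 3 and 2 VDR sites did not. Of all genes, 6.29%, 5.89% and 3.36% did not overlap for VDR. For ATAC the shares were 45.7% in colon against SI crypt and 43.1% in colon against SI villus. The ATAC share for SI crypt against SI villus and the shares of all VDR sites under the block are not given here. Those counts therefore have no background beside them and are not read as particular to the members. For SI crypt against SI villus the VDR calls were Gadd45a by window and the Cdkn1a +3.44 kb and Ccng2 +25.5 kb sites. A peak that a sample does not list may lie below its threshold at this depth.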
